A study of Mus musculus with 18 samples.

Results

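Cyclins and the cyclin-dependent kinases (CDKs) they activate were followed in mouse round spermatids (RS) of 3 genotypes, the wild type (WT), GRTH-KO and GRTH-KI. The genes were taken by symbol, as every gene of the count table with a symbol of the Ccn or Cdk families, with pseudogenes left out. The symbols of 44 of 54232 genes matched, 3 of them were pseudogenes (Ccnb1-ps, Ccnb2-ps and Ccnd3-ps), and 41 genes remained. They were 21 cyclins, 19 CDKs and Ccnb1ip1, a meiotic ubiquitin ligase that carries a cyclin's name in its symbol but is not a cyclin. All 41 were protein coding and all 41 passed the filter on low counts, which left 21058 genes to test.

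The animals were 75 to 85 days old, the mutants are called KO and KI here, and total RNA of the RS fraction was sequenced without poly(A) selection, with 6 libraries per genotype. GRTH (DDX25) is a testicular RNA helicase of the DEAD-box family. KO mice lack it, and KI mice carry the human gene with an arginine-to-histidine change and lack the phosphorylated form, so the mouse Ddx25 gene is a readout of both alleles. In both mutants RS do not elongate. RS were enriched by sedimentation through an albumin gradient after a collagenase step meant to remove Leydig cells, and a fraction of this kind can hold neighbouring cell types. The labels do not say which libraries came from separate animals, so p-values measure the spread between these libraries only. Total counts ran from 18766971 to 26776555 per library.

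Ddx25 (chr9:35536647-35558528, minus strand, mm10) was measured first, since it checks the labels. Its CPM (counts scaled to a common library total by the TMM method) in the lowest, median and highest library were 538, 564 and 607 in WT, 47.7, 72.2 and 90.9 in KO, and 0.0456, 0.340 and 56.9 in KI. The highest KI value belonged to the library labelled KI 4, which lay within the KO range, while the other 5 KI libraries stood at 0.0456 to 0.519 CPM. A gene-level count can include exons that a knock-out leaves in place, so the KO value does not measure intact transcript. The log2 fold change against WT was -3.02 ± 0.95 (SE) in KO (edgeR adjusted p = 0.0235) and -5.86 ± 1.09 in KI (edgeR adjusted p = 0.000341). Without the library labelled KI 4 the values were -3.02 ± 0.19 in KO (edgeR adjusted p = 3.77e-10) and -10.85 ± 0.31 in KI.

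Several libraries were also closer to each other than to the rest. On an index of the difference between 2 libraries on which counting noise alone gives 1, the library labelled KI 4 and KO 2 stood at 1.59, and the pairs KO 4 with KO 5, WT 1 with WT 2, KI 1 with KI 2, KI 3 with KI 5, WT 3 with WT 4 and WT 5 with WT 6 at 2.12 to 3, against 4.62 for the next pair. Results are therefore given for all 18 libraries and, where it matters, with each close pair of a genotype summed to 1 library (3 WT, 5 KO and 4 KI) or without the library labelled KI 4.

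Cyclins are named for proteins that rise and fall with the cell cycle, and most of them switch on CDKs. In dividing cells D-type cyclins with Cdk4 and Cdk6 start the cycle, E-type cyclins with Cdk2 open DNA replication, and A- and B-type cyclins with Cdk1 drive division. A separate branch (cyclins C, H, K, L and T with Cdk7, Cdk8, Cdk9, Cdk11b, Cdk12, Cdk13 and Cdk19) works in transcription and splicing. RS have completed meiosis and do not divide again, but germ cells are known for cyclins of their own, such as the cyclin A1 of meiotic spermatocytes, and for Cdk16 (PCTAIRE1), a kinase activated by cyclin Y that male mice need to make functional sperm.

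The order of levels was set by B-type, A-type and K cyclins. Per kilobase of gene length (FPKM, the mean ± SD of 6 WT libraries), Ccnb2 stood at 143 ± 36.8, Ccnk, the partner of Cdk12 and Cdk13, at 124 ± 25.1, and Ccna1 at 91.4 ± 27.3. These 3 levels overlapped between libraries. Ccnb1, the main cyclin of cell division, followed at 30.6 ± 11.4 FPKM, and Cdk16, the most abundant CDK, at 21.8 ± 2.46 FPKM, close to Cdk11b at 20.5 ± 3.54 FPKM. Cdk16 was thus the 5th of the 41 genes in WT, above 86.7% of all genes tested, and it was the 16th in KO and the 19th in KI. At the low end lay Cdk15 at 0.321 ± 0.126 FPKM and Ccnd2 at 0.0785 ± 0.0178 FPKM. One form carried most of the level in several families. Ccna1 made up 98.6% ± 0.242 of the A-type FPKM in WT, 98.6% ± 0.291 in KO and 98.7% ± 0.400 in KI. Ccnb2 made up 82.4% ± 1.91 of the B-type FPKM in WT, 86.7% ± 1.84 in KO and 85.7% ± 0.637 in KI. Of the D-type FPKM, Ccnd3 held 92.3% ± 1.68 in WT, 85.6% ± 4.84 in KO and 86.9% ± 3.37 in KI.

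**Figure D1:**
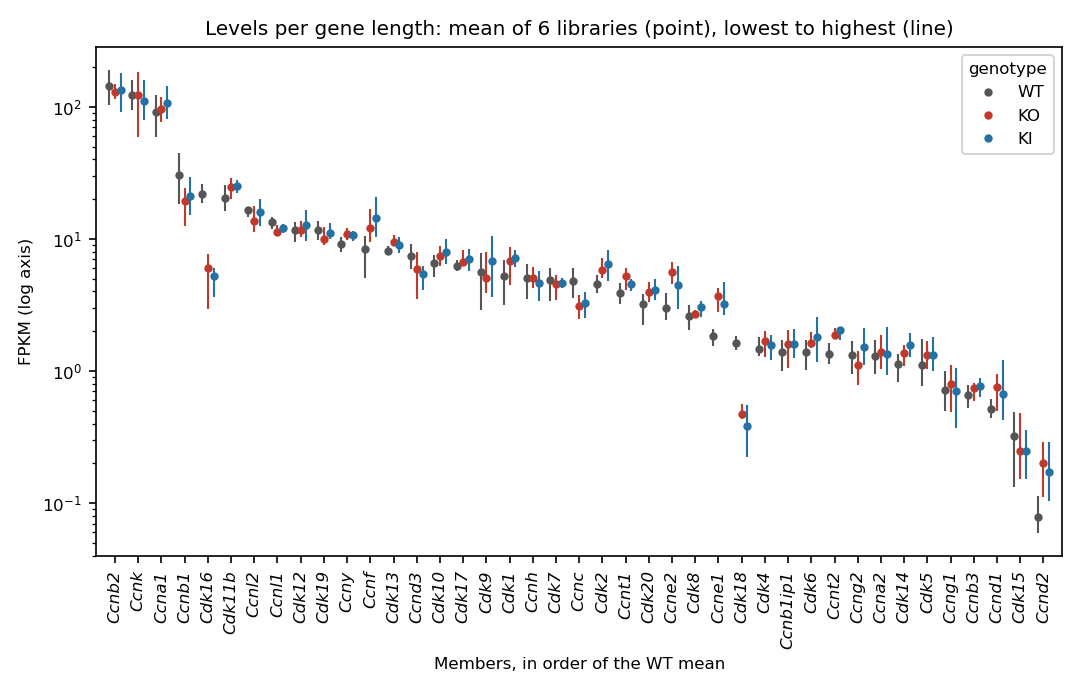
FPKM of the 41 genes on a log axis, in order of the WT mean, as the mean (point) and the lowest to highest of 6 libraries (line) for each genotype. Ccnb2, Ccnk and Ccna1 lead in all 3 genotypes, while the KO and KI lines of Cdk16 and Cdk18 lie wholly below their WT lines.

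In KO against WT, 9 genes were higher: the G1 cyclins Ccnd1, Ccnd2, Ccne1 and Ccne2, the F-box cyclin Ccnf, the elongation cyclins Ccnt1 and Ccnt2, Ccny and Cdk2. Lower in KO were 5 genes, namely Cdk16, Cdk18, Ccnc, Ccnb1 and Ccnl1. A change was called at an edgeR quasi-likelihood adjusted p below 0.1 over all 21058 genes. The 9 higher genes were 22% of the 41, beside 16.4% of all genes tested, and the 5 lower genes were 12.2%, beside 13.5%, so the counts lay near those of the transcriptome. The median log2 fold change was 0.16 for the 41 genes and 0.03 for all genes tested. Tested against a change of 1 log2 unit, Cdk16 and Cdk18 were lower, 4.88% of the 41 beside 1.13% of all genes, and 0 were higher beside 0.598%. No gene of the 41 reached an unadjusted p below 0.05 for a rise past 1 log2 unit in edgeR, and DESeq2 called 0. Without WT 3 the count of lower genes fell to 3, since Ccnb1 and Ccnl1 were no longer called. Libraries of KO lay wholly above WT for 4 genes (Ccne1, Ccne2, Ccnt2 and Cdk13), 9.76% beside 6.62% of all genes, and wholly below WT for 2 (Cdk16 and Cdk18), 4.88% beside 6.44%. Cdk13 was not called, with an edgeR adjusted p of 0.107.

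In KI against WT, 10 genes were higher and 4 lower. The higher genes were the cyclins Ccnd2, Ccne1, Ccne2, Ccnf and Ccnt2 and the kinases Cdk1, Cdk2, Cdk11b, Cdk14 and Cdk20, 24.4% of the 41 beside 16.1% of all genes tested. The lower genes were Cdk16, Cdk18, Ccnc and Ccnd3, 9.76% beside 15.4%. The median log2 fold change was 0.21 for the 41 genes and 0.05 for all genes tested. Past 1 log2 unit, Cdk16 and Cdk18 were lower, 4.88% beside 1.43%, and 0 were higher beside 0.522%, again with 0 at an unadjusted p below 0.05 in edgeR and 0 in DESeq2. Libraries of KI lay wholly above WT for Ccne1 and Ccnt2, 4.88% beside 5.97%, and wholly below WT for Cdk16 and Cdk18, 4.88% beside 7.91%. Both comparisons use the same WT libraries, so they are not independent of each other, and their values are set side by side below.

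With close pairs summed, edgeR called 5 of the 41 genes higher in KO (Ccnd2, Ccne1, Ccne2, Ccnt1 and Ccnt2), beside 8.11% of all genes, and 3 lower (Ccnc, Cdk16 and Cdk18), beside 7.74%. In KI it called 6 higher (Ccnd2, Ccne1, Ccne2, Ccnf, Ccnt2 and Cdk2), beside 7.02%, and 2 lower (Cdk16 and Cdk18), beside 7.73%. The call past 1 log2 unit then rested on Cdk16 alone in KO, as Cdk18 had an edgeR adjusted p of 0.109, and on both kinases in KI. With the library labelled KI 4 left out as well, Cdk18 in KO was again past 1 log2 unit by test (edgeR adjusted p = 0.0988). When the library labelled KI 4 was also left out, edgeR called 4 of the 41 genes higher in KO (the same without Ccnt1), beside 7.94% of all genes. The same 3 were lower, beside 7.62%. In KI it then called 4 higher (the same without Ccne2 and Cdk2), beside 5.32%, and the same 2 lower, beside 6.87%.

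**Figure D2:**
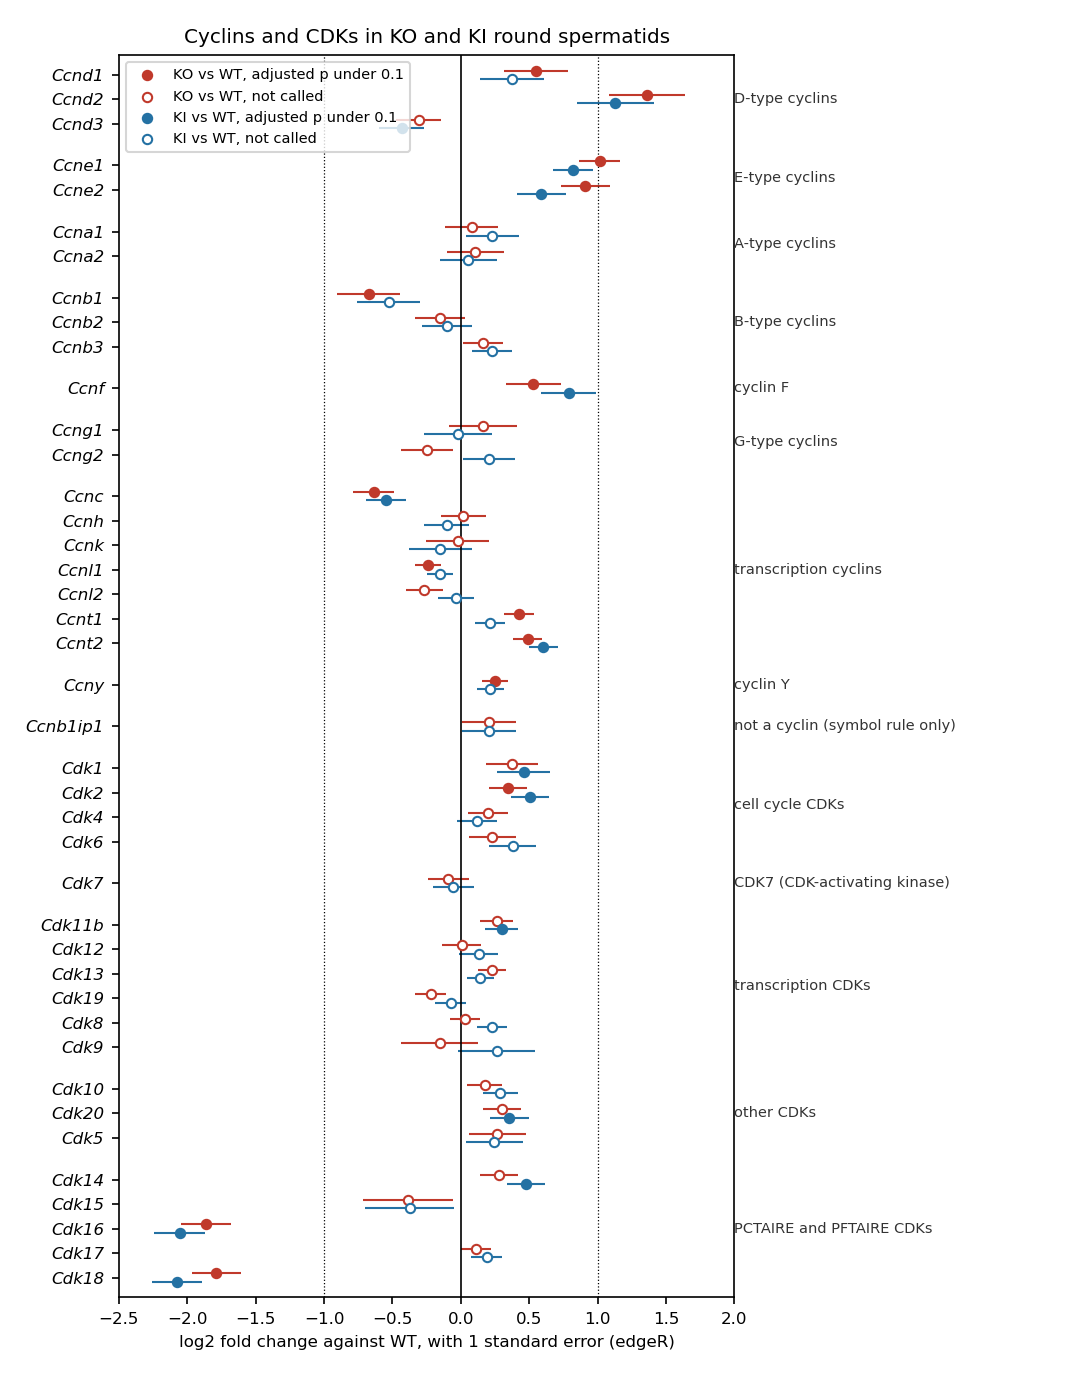
Log2 fold change of each of the 41 genes in KO (red) and KI (blue) against WT, grouped by role, with bars of 1 standard error from edgeR; filled points have an adjusted p below 0.1 and dotted lines mark 1 log2 unit. Cdk16 and Cdk18 stand apart near -2, and Ccnd2 and Ccne1 lie at the upper end.

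The PCTAIRE and PFTAIRE kinases are CDKs known mostly for roles in differentiated cells. Of these 5 genes, 2 (Cdk16 and Cdk18) showed the largest differences of the 41 genes. Cdk16 (chrX:20687954-20699880, plus strand) and Cdk18 (PCTAIRE3, chr1:132112237-132139684, minus strand) fell 3.45- to 4.22-fold in the mutants, while Cdk17 (PCTAIRE2), the third of the subfamily, was not called. The promoter sequences of Cdk16 and Cdk18, from RefSeq (GRCm38.p6), are shown because these genes moved together; each runs 5′ to 3′ on the gene's own strand and ends at the base before the RefSeq start. In Cdk16, capitals mark the cAMP response element core TGACG or its complement, first at 88 and 58 bases before the start, and the cell cycle homology letters TTTGAA (complement) at 48 bases; CCAAT, also present in this window, is not capitalised. In Cdk18, capitals mark the complement of CCAAT at 86 bases, and neither TGACG nor TTTGAA occurred on either strand of this window.
Cdk16, chrX:20687704-20687953, plus strand: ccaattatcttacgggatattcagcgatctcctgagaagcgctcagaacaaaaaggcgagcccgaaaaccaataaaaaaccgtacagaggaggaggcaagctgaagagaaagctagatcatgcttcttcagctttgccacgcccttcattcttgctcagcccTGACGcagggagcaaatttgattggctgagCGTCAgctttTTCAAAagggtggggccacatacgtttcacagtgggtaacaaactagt
Cdk18, chr1:132139686-132139935, minus strand: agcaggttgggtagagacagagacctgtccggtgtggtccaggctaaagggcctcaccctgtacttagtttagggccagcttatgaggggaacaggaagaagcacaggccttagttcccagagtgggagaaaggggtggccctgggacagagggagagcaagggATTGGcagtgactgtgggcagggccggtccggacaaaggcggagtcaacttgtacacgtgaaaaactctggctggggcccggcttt
On either strand of the 250 bases, TGACG was found in 17.8% of all 32851 RefSeq promoters and in 14 of the 34 promoters listed for 32 of the 41 genes. CCAAT was found in 33.8% of all promoters and in 16 of the 34. The letters of TTTGAA were found in 16% of all promoters and in 4 of the 34. The GC box GGGCGG was found in 32.7% of all promoters and in 22 of the 34, and in neither the Cdk16 nor the Cdk18 window. These matches describe the sequence and are not measured sites.

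Cdk16 stood at 82.4, 93.4 and 113 CPM (lowest, median and highest of 6 libraries) in WT, at 12.9, 27.7 and 33.7 CPM in KO and at 15.9, 24.2 and 26.4 CPM in KI. Every KO and KI library lay below every WT library. The log2 fold change was -1.87 ± 0.18 (SE) in KO (3.64-fold lower, edgeR adjusted p = 1.24e-07) and -2.06 ± 0.18 in KI (4.16-fold lower, edgeR adjusted p = 2.79e-08). Against a change of 1 log2 unit the edgeR adjusted p was 0.00436 in KO and 0.000457 in KI. Cdk16 made up 73.4% ± 2.86 of the summed FPKM of Cdk16, Cdk17 and Cdk18 in WT, 44.7% ± 10.5 in KO and 41.4% ± 7.30 in KI.

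Cdk18 was a low-level gene, with 148 to 183 counts per WT library. Its CPM were 6.81, 7.71 and 8.71 in WT, 2.07, 2.17 and 2.66 in KO and 1.06, 1.66 and 2.61 in KI. Again no mutant library reached the WT range. In edgeR the log2 fold change was -1.79 ± 0.18 in KO (3.45-fold lower, edgeR adjusted p = 1.65e-07) and -2.08 ± 0.18 in KI (4.22-fold lower, edgeR adjusted p = 1.88e-08). None of the 18 fits that left out 1 library ended the call for Cdk16 or Cdk18 in either genotype.

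The relatives of these kinases behaved otherwise. Cdk17 had a log2 fold change of 0.11 ± 0.11 in KO and 0.19 ± 0.11 in KI, and neither was called. Cdk14 (PFTAIRE1), a partner of cyclin Y at the cell membrane, was higher in KI at 0.48 ± 0.14 (edgeR adjusted p = 0.0147) and stood at 0.28 ± 0.14 in KO (edgeR adjusted p = 0.162); the KI call ended with close pairs summed. Cdk15 was near the low end, at 7 to 27 counts per WT library, and was not called, at -0.39 ± 0.33 in KO and -0.37 ± 0.33 in KI. Ccny, the activator of Cdk16, did not fall with it: its log2 fold change was 0.25 ± 0.10 in KO (edgeR adjusted p = 0.0690) and 0.22 ± 0.10 in KI (edgeR adjusted p = 0.111). The KO call of Ccny ended without WT 3, WT 4, KO 3, KO 5 or KO 6.

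**Figure D3:**
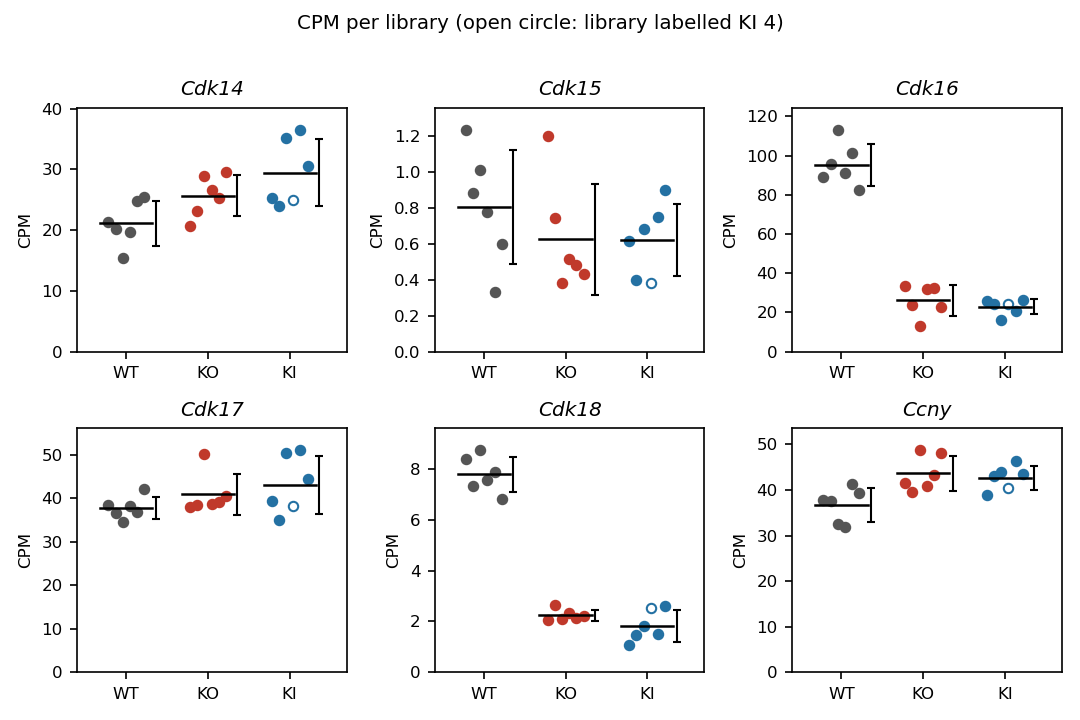
CPM per library (circles), with the mean (line) and SD (bar) of 6 libraries per genotype, for the PCTAIRE and PFTAIRE kinases and their cyclin Ccny; the open circle is the library labelled KI 4. Mutant libraries lie below all WT libraries for Cdk16 and Cdk18 but overlap WT for Cdk14, Cdk15, Cdk17 and Ccny.

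Markers of elongating spermatids moved with the fall of Cdk16 and Cdk18. The summed CPM of 8 such genes (Tnp1, Tnp2, Prm1, Prm2, Prm3, Akap4, Smcp and Odf1) was 17667 ± 2156 (SD) in WT, 3334 ± 912 in KO and 2958 ± 425 in KI, and 8 of 8 fell in each mutant. Prm2, a protamine that packs sperm chromatin, was the most abundant, with a WT mean of 6078 CPM against 593 CPM in KO and 527 CPM in KI. The authors state that Prm2 and Tnp2 mRNA is already made in RS and stored there for later translation. RNA of this list therefore need not come from elongating cells alone. The summed CPM of 8 RS markers (such as Acrv1, Acr and Tssk1) was 991 ± 162 in WT, 868 ± 188 in KO and 759 ± 108 in KI, with 0 of 8 rising, 1 falling in KO and 4 falling in KI. The list was led by Tssk1 and no gene of it was at 0 in any library. Fewer cells of a type and less RNA per cell cannot be told apart in bulk samples. The part of elongating cells, or of a change within RS, in the fall of the kinases was not tested.

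E-type cyclins, which switch on Cdk2, rose in both mutants. Ccne1 (chr7:38097984-38107534, minus strand) rose 2.02-fold in KO. Its CPM were 4.14, 4.96 and 5.58 in WT, 7.47, 9.89 and 11.4 in KO and 7.10, 7.95 and 12.4 in KI. Mutant and WT libraries did not overlap, and the library labelled KI 4 was the highest of its group, above the other KI libraries at 7.10 to 8.43. On the log2 scale the difference from WT was 1.02 ± 0.15 in KO (2.02-fold higher, edgeR adjusted p = 2.63e-05) and 0.82 ± 0.15 in KI (1.77-fold higher, edgeR adjusted p = 0.000244), or 0.69 ± 0.13 in KI without the library labelled KI 4 (edgeR adjusted p = 0.000516).

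Ccne2 (chr4:11191351-11204779, plus strand) stood at 8.43, 9.93 and 13.6 CPM in WT, at 16, 19.5 and 23.5 CPM in KO and at 10.2, 14.2 and 22 CPM in KI. The KO libraries cleared the WT range and the KI libraries overlapped it. The difference from WT on the log2 scale was 0.91 ± 0.18 in KO (edgeR adjusted p = 0.000696) and 0.59 ± 0.18 in KI (edgeR adjusted p = 0.0188), the latter not called with close pairs summed and without the library labelled KI 4. Cdk2, their kinase, which also works at chromosome ends in meiosis, rose by 0.51 ± 0.14 on the log2 scale in KI (edgeR adjusted p = 0.00813) and by 0.34 ± 0.14 in KO (edgeR adjusted p = 0.0725). The KO call of Cdk2 was lost without WT 2, WT 3, WT 4, KO 2, KO 3 or KO 4 and with DESeq2.

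The D-type cyclins did not move as one. Ccnd2 (chr6:127125162-127152193, minus strand), the cyclin of spermatogonia and of many somatic cells, had the largest rise of the 41 genes but the lowest level, with 13 to 23 counts per WT library. It stood at 0.562, 0.7 and 1.06 CPM in WT, at 1.04, 1.91 and 2.75 CPM in KO and at 0.982, 1.39 and 2.71 CPM in KI. The ranges met at the highest WT library, WT 6. This gave a log2 fold change of 1.36 ± 0.28 in KO (2.57-fold higher, edgeR adjusted p = 0.000997) and 1.13 ± 0.28 in KI (2.19-fold higher, edgeR adjusted p = 0.00461), and was not past 1 log2 unit by test.

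Ccnd1 was called in KO, at a log2 fold change of 0.55 ± 0.23 (edgeR adjusted p = 0.0964), and stood at 0.37 ± 0.24 in KI (edgeR adjusted p = 0.277). The library labelled KI 4 held 5.67 CPM of Ccnd1 against 2.01 to 3.49 CPM in the other 5 KI libraries, and without it the KI value was 0.12 ± 0.21. The KO value was then 0.55 ± 0.19 (edgeR adjusted p = 0.0429). The KO call of Ccnd1 was lost in 11 of 18 fits without 1 library (WT 1, WT 2, WT 4, WT 5, WT 6, KO 2, KO 3, KO 4, KO 5, KI 1 or KI 2). It was also lost in 7 of 9 other settings, among them DESeq2, no filter on low counts, a replicate block and close pairs summed. Ccnd3, the D-type cyclin that carried most of the family's FPKM, went the other way and was lower in KI by test, at -0.43 ± 0.17 (edgeR adjusted p = 0.0620), with -0.31 ± 0.17 in KO (edgeR adjusted p = 0.201). Its KI call was lost without WT 1, WT 2, WT 3, KI 3 or KI 5. The D-type kinases Cdk4 and Cdk6 were not called, at log2 fold changes of 0.20 ± 0.15 and 0.23 ± 0.17 in KO and 0.12 ± 0.15 and 0.38 ± 0.17 in KI.

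Markers of Leydig cells, a somatic cell type that the collagenase step was meant to remove, also moved with the rise of Ccnd2. The summed CPM of 8 Leydig genes was 15.4 ± 5.43 in WT, 52.5 ± 13.4 in KO and 45.9 ± 29.2 in KI, 8 of 8 rose in each mutant, and Cyp17a1 was the most abundant at 3.49, 14.9 and 12.9 CPM. Lhcgr, the receptor that defines these cells, was at 0 in at least 1 library. WT 6, the WT library with the highest Ccnd2, also had the highest Leydig sum of WT, 26.3 against 12 to 14.4 in the other 5. Among KI libraries the Leydig sum was 60.3 in KI 1, 86.3 in KI 2 and 67.2 in the library labelled KI 4, where Ccnd2 was 1.1, 2.71 and 2.12 CPM, and 16.2 to 23.3 in the other 3, where Ccnd2 was 0.982 to 1.55 CPM.

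Spermatogonial markers, led by Kit, summed to 35.5 ± 3.81 CPM in WT, against 51.9 ± 14.3 CPM in KO and 40.3 ± 20.7 CPM in KI, with 2 of 7 tested genes rising in KO and 1 in KI. Without the library labelled KI 4, 3 of the 7 rose in KO and 0 in KI, and their median log2 fold change in KI went from 0.26 to -0.07. Lists for leptotene and zygotene spermatocytes (795, 768 and 852 summed CPM in WT, KO and KI), pachytene and later spermatocytes (5393, 5013 and 4866), Sertoli cells (21.5, 15.8 and 17.2), peritubular myoid cells (6.72, 6.46 and 6), macrophages (9.24, 10.6 and 12.1) and endothelial cells (14.4, 23.1 and 22.1) held genes called in both directions, except the endothelial list and, in KO, the Sertoli list. Of the leptotene and zygotene genes, 3 rose and 2 fell of 8 in KO and 2 rose and 1 fell in KI, and of the pachytene and later genes 2 rose and 1 fell of 10 in KO and 1 rose and 2 fell in KI. Of the Sertoli genes, 0 rose and 2 fell of 8 in KO and 1 rose and 1 fell in KI. Among the other somatic lists, 2 rose and 1 fell of 5 tested myoid genes in KO and 1 rose and 1 fell in KI, 2 rose and 1 fell of 6 tested macrophage genes in each mutant, and 2 of 5 tested endothelial genes rose in KO and 1 in KI. Without the library labelled KI 4, the KI counts were 1 up and 1 down for leptotene and zygotene, for pachytene and later and for macrophage genes, and 1 up and 2 down for Sertoli genes, and the Leydig list kept 7 tested genes, all 7 higher in each mutant. The largest called changes, picked after their values were seen, included the smooth muscle genes Cnn1, 5.38-fold higher in KO and 3.4-fold higher in KI, and Myh11, 2.91- and 3.31-fold lower. The meiotic genes Pgk2 (2.36- and 2.60-fold lower) and Sycp3 (1.67- and 1.68-fold higher) also moved in opposite directions. The part of these cells in the cyclin results was not tested.

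**Figure D4:**
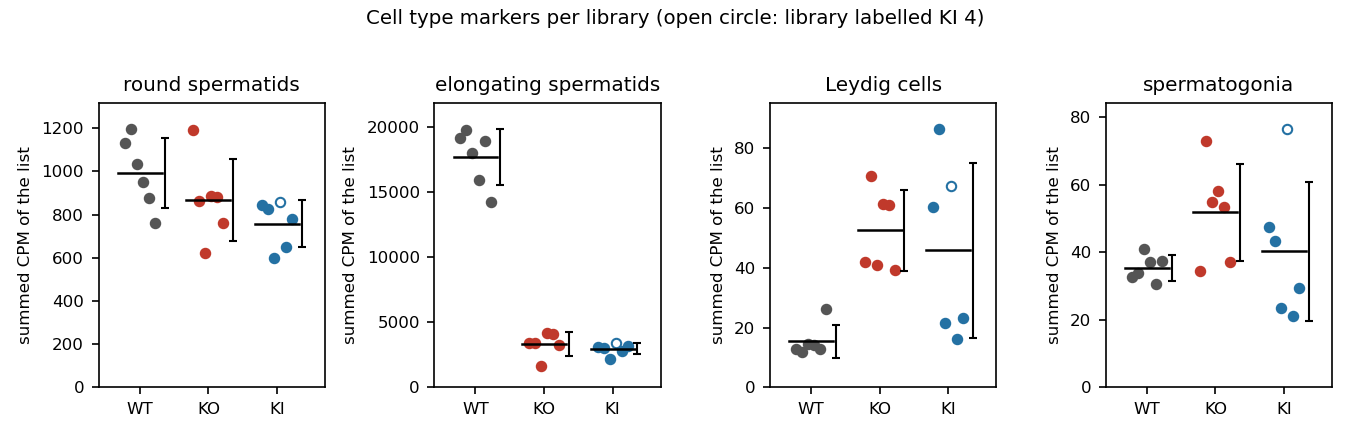
Summed CPM of 4 marker lists per library (circles), with the mean (line) and SD (bar) of 6 libraries per genotype; the open circle is the library labelled KI 4. Elongating spermatid markers are lower in every mutant library, and Leydig markers are higher in all KO libraries and split into a high and a low set among KI libraries.

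Cyclin F rose and its level differed between libraries of one genotype. Ccnf (chr17:24223232-24251409, minus strand), which works as the substrate-binding F-box protein of a ubiquitin ligase and activates no CDK, had 15.6, 28.0 and 32.7 CPM in WT, 29.2, 34.3 and 51.8 CPM in KO and 32.1, 38.1 and 64.6 CPM in KI. The ranges of both mutants met that of WT, the 2 lowest WT values came from the close pair WT 1 and WT 2, and the 2 highest KI values came from the close pair KI 1 and KI 2. The log2 fold change was 0.79 ± 0.20 in KI (edgeR adjusted p = 0.00552) and 0.53 ± 0.20 in KO (edgeR adjusted p = 0.0608). The KO call was lost without WT 1, WT 2, KO 2 or KO 6 and with close pairs summed. Its RefSeq promoter is shown as that of a rising cyclin with the cell cycle homology letters TTTGAA. They are in capitals, at 130 and 14 bases before the start. CCAAT (at 147 and 107 bases) and GGGCGG (at 237 bases and, as its complement, at 186 bases) also occurred and are not capitalised. The falling Cdk16 carries TTTGAA too, and the letters were in 11.8% of the 34 promoters counted above, beside 16% of all.
Ccnf, chr17:24251410-24251659, minus strand: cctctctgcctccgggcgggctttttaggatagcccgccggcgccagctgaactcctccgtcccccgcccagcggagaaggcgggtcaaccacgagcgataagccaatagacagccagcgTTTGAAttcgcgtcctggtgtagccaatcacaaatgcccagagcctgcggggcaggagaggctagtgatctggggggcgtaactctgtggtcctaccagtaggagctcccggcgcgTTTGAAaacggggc

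The cyclins and kinase of cell division did not rise together. Ccnb1 (chr13:100778650-100786570, minus strand) stood at 76.8, 126 and 190 CPM in WT, at 53.0, 82.2 and 103 CPM in KO and at 63.4, 86.2 and 125 CPM in KI. The genotypes overlapped, and within WT the pair WT 1 and WT 2 was low and the pair WT 3 and WT 4 was high. In edgeR the log2 fold change was -0.67 ± 0.23 in KO (edgeR adjusted p = 0.0368), a call lost without WT 3 and with close pairs summed, and -0.53 ± 0.23 in KI (edgeR adjusted p = 0.101).

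Ccnb2, the most abundant of the 41 genes per length, was not called, at -0.15 ± 0.18 in KO and -0.10 ± 0.18 in KI, nor was the meiotic Ccnb3, at 0.16 ± 0.15 and 0.23 ± 0.15. Ccna1, the A-type cyclin that spermatocytes need to enter the meiotic divisions, was at 0.08 ± 0.19 and 0.23 ± 0.19, and Ccna2, the A-type cyclin of mitotic cells, at 0.11 ± 0.21 and 0.06 ± 0.21, the latter -0.13 ± 0.19 without the library labelled KI 4. Neither A-type cyclin was called in either mutant. Cdk1, the kinase of these cyclins, was higher in KI at 0.46 ± 0.19 (edgeR adjusted p = 0.0853), with 0.38 ± 0.19 in KO (edgeR adjusted p = 0.172), and its KI call was lost without WT 1, WT 2, KI 1, KI 2 or the library labelled KI 4. Ccnb1, Ccnb2 and Ccnd3 have processed pseudogenes with which they can share reads, and how such reads were counted is not given in the sources used here, so the values of these 3 genes are uncertain to that extent.

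**Figure D5:**
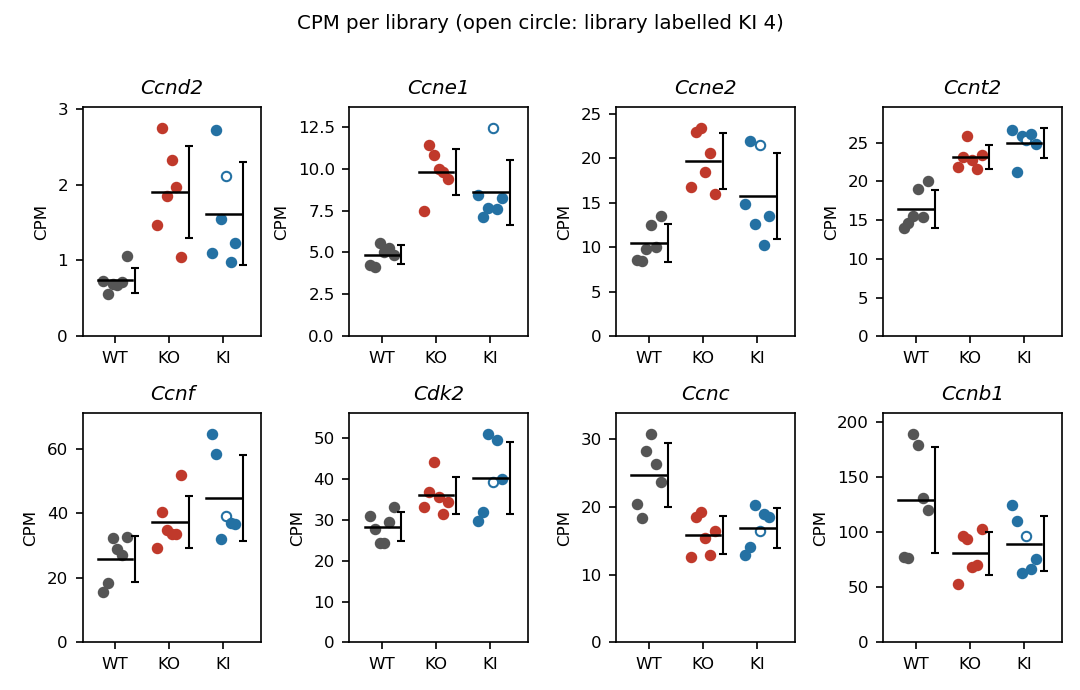
CPM per library (circles), with the mean (line) and SD (bar) of 6 libraries per genotype, for 8 genes of the cycle and of transcription; the open circle is the library labelled KI 4. KO and KI libraries clear the WT range for Ccne1 and Ccnt2, and Ccnb1 spreads widely within WT, from 76.8 to 190 CPM.

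In the transcription branch Ccnt2 rose and Ccnc fell in both mutants, and Ccnt1 rose in KO. Ccnt2 (chr1:127774164-127808061, plus strand), which with Cdk9 forms the elongation factor P-TEFb, stood at 14, 15.5 and 20.1 CPM in WT, at 21.5, 23 and 25.9 CPM in KO and at 21.3, 25.6 and 26.6 CPM in KI. All mutant libraries lay above all WT libraries. On the log2 scale the difference from WT was 0.49 ± 0.11 in KO (1.40-fold higher, edgeR adjusted p = 0.00176) and 0.60 ± 0.11 in KI (1.52-fold higher, edgeR adjusted p = 0.000211). Ccnt1, the other T-type cyclin and the more abundant per length, rose by 0.43 ± 0.11 in KO (edgeR adjusted p = 0.00744) and stood at 0.21 ± 0.11 in KI (edgeR adjusted p = 0.177); its KO call was lost with close pairs summed and without the library labelled KI 4 (edgeR adjusted p = 0.120). Cdk9 itself was not called and varied widely, at -0.16 ± 0.28 in KO and 0.26 ± 0.28 in KI.

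Ccnc (chr4:21727701-21759922, plus strand), the cyclin of the Mediator kinase module, fell. It stood at 18.3, 25 and 30.8 CPM in WT, at 12.6, 15.9 and 19.2 CPM in KO and at 12.9, 17.5 and 20.3 CPM in KI. The mutant libraries lay below 5 of the 6 WT libraries and overlapped WT 2 alone. The difference from WT on the log2 scale was -0.64 ± 0.15 in KO (1.55-fold lower, edgeR adjusted p = 0.00322) and -0.55 ± 0.15 in KI (1.46-fold lower, edgeR adjusted p = 0.00913), and the KI call was lost with close pairs summed. Its kinases Cdk8 and Cdk19 were not called, at 0.03 ± 0.11 and -0.22 ± 0.11 in KO and 0.23 ± 0.11 and -0.07 ± 0.11 in KI, but without the library labelled KI 4 Cdk8 was called in KI, at 0.28 ± 0.11 (edgeR adjusted p = 0.0823).

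The other transcription pairs changed little by test. Ccnl1, a cyclin of splicing, was lower in KO at -0.24 ± 0.09 (edgeR adjusted p = 0.0703), a call lost in 8 of 18 fits without 1 library (WT 1, WT 3, WT 4, KO 1, KO 2, KO 4, KO 5 or KO 6). That call was also lost with a replicate block, with no filter on low counts and with close pairs summed. In KI Ccnl1 stood at -0.15 ± 0.09, and Ccnl2 was at -0.27 ± 0.13 in KO and -0.03 ± 0.13 in KI. Their kinase Cdk11b was higher in KI at 0.30 ± 0.12 (edgeR adjusted p = 0.0828), a call lost without WT 4, WT 5, KI 1, KI 2, KI 3 or KI 5, with 0.26 ± 0.12 in KO (edgeR adjusted p = 0.138). Ccnk was at -0.02 ± 0.23 in KO and -0.15 ± 0.23 in KI, and its kinases Cdk12 (0.01 ± 0.14 and 0.13 ± 0.14) and Cdk13 (0.23 ± 0.10 and 0.14 ± 0.10) were not called. The pair of the CDK-activating kinase, Cdk7 (-0.09 ± 0.15 and -0.06 ± 0.15) and Ccnh (0.02 ± 0.17 and -0.10 ± 0.17), was not called either.

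Among the remaining genes, Cdk20, a kinase linked to cilia, was higher in KI at 0.36 ± 0.14 (edgeR adjusted p = 0.0700), with 0.30 ± 0.14 in KO (edgeR adjusted p = 0.135), and its KI call was lost without WT 1, WT 2, KI 1, KI 2 or the library labelled KI 4. Cdk5, Cdk10, the G-type cyclins Ccng1 and Ccng2, and Ccnb1ip1 were not called in either mutant, with log2 fold changes from -0.25 to 0.29.

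None of the 41 genes was called between KI and KO. In edgeR, 0 of 41 were called between them, beside 0.0997% of all genes tested (21 of 21058), and DESeq2 also called 0. At an unadjusted p below 0.05 in edgeR there was 1 gene, beside 4.42% of all genes, Ccng2, chosen here after its values were seen, with a log2 fold change of 0.45 ± 0.19 and an edgeR adjusted p of 0.961. The log2 fold changes of KI against KO ran from -0.32 (Ccne2) to 0.45 (Ccng2). Cdk16 differed by -0.19 ± 0.18 and Cdk18 by -0.29 ± 0.19 between KI and KO. Without the library labelled KI 4, whose counts nearly match those of KO 2, 0 of 41 were called as well, beside 0.522% of all genes (111 of 21257), with the lowest edgeR adjusted p at 0.390. The count at an unadjusted p below 0.05 then moved from 1 to 6 (Ccng2, Ccne1, Ccne2, Cdk18, Cdk8 and Ccnd1), beside 9.15% of all genes.

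Genes that control cyclins and CDKs were grouped by function into 9 lists, and the 2 genes with the lowest p in KO are named from each. Among ubiquitin ligase genes of the SCF type that remove cyclins and CDK inhibitors, 3 of 6 rose and 1 fell in each mutant. The one that fell was Skp2 (chr15:9111985-9155425, minus strand), whose product tags the inhibitor p27 and cyclin E for destruction. Skp2 stood at 95.8, 118 and 135 CPM in WT, at 36.3, 49.2 and 57.1 CPM in KO and at 35.6, 41.3 and 60.2 CPM in KI. No mutant library reached the WT range. This gave a log2 fold change of -1.32 ± 0.15 in KO (edgeR adjusted p = 6.48e-07) and -1.46 ± 0.15 in KI (edgeR adjusted p = 1.18e-07), past 1 log2 unit by test in KI only (edgeR adjusted p = 0.0975, against 0.680 in KO), a difference between mutants that was itself not called. Fbxw7, which also tags cyclin E, rose by 0.56 ± 0.12 in KO and 0.60 ± 0.12 in KI (edgeR adjusted p = 0.00147 and 0.000662).

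Of 8 CDK inhibitor genes, 2 rose and 2 fell in KO and 2 rose and 1 fell in KI. Cdkn1c (p57), an inhibitor of many CDKs, stood at 13.9, 15.7 and 20.8 CPM in WT, at 6.43, 8.23 and 10.6 CPM in KO and at 7.10, 8.62 and 9.36 CPM in KI. Its mutant libraries all lay below WT. Against WT, the log2 fold change was -1 ± 0.14 in KO (edgeR adjusted p = 1.48e-05) and -0.96 ± 0.14 in KI (edgeR adjusted p = 1.98e-05). Cdkn2d (p19), an inhibitor of Cdk4 and Cdk6, moved the other way, by 0.65 ± 0.20 in KO and 0.59 ± 0.20 in KI (edgeR adjusted p = 0.0191 and 0.0331); with close pairs summed the KI call was lost (edgeR adjusted p = 0.157).

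Of 13 Rb and E2F genes, which link CDK activity to S-phase transcription, 4 rose and 0 fell in KO. In KI 4 rose and 1 fell, or 3 and 0 without the library labelled KI 4. Tfdp1, the partner of E2F proteins, rose by 0.64 ± 0.10 and 0.58 ± 0.10 (edgeR adjusted p = 6.33e-05 and 0.000162), and E2f7, a repressor of the family, by 0.50 ± 0.12 and 0.61 ± 0.12 (edgeR adjusted p = 0.00487 and 0.000751). For both genes the mutant libraries lay above all WT libraries. The anaphase-promoting complex removes A- and B-type cyclins. Of 19 genes of this complex and its regulators, 3 rose and 4 fell in KO. In KI 3 rose and 5 fell, or 3 and 4 without that library. The subunit Cdc16 of the complex fell by 0.67 ± 0.11 on the log2 scale in KO and by 0.76 ± 0.11 in KI (edgeR adjusted p = 0.000138 and 3.17e-05). Its subunit Anapc7 rose by 0.59 ± 0.13 and 0.62 ± 0.13 (edgeR adjusted p = 0.00206 and 0.00132).

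Of 7 tested CDK partners outside the symbol rule, 2 rose in KO and 1 in KI. Cks2, a small CDK-binding subunit, rose by 0.75 ± 0.15 in KO and 0.64 ± 0.15 in KI (edgeR adjusted p = 0.000688 and 0.00253), and Cdk5r1 (p35), the activator of Cdk5, was higher in KO at 0.74 ± 0.25 (edgeR adjusted p = 0.0391), a call lost without KO 2 and with close pairs summed (edgeR adjusted p = 0.196). The KI call of Cks2 was lost with close pairs summed and without the library labelled KI 4 (edgeR adjusted p = 0.107). Of 9 partners of the transcription CDKs, 3 rose and 1 fell in each mutant, but 2 rose and 0 fell in KI without the library labelled KI 4. The Mediator kinase module genes Med12 (0.78 ± 0.18 and 0.48 ± 0.18, edgeR adjusted p = 0.00252 and 0.0541) and Med13 (0.48 ± 0.12 and 0.55 ± 0.12, edgeR adjusted p = 0.00471 and 0.00145) were higher in KO and KI, against the fall of Ccnc. The KI call of Med12 was lost without WT 5 or the library labelled KI 4 and with close pairs summed (edgeR adjusted p = 0.181).

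Of 6 tested genes for Cdc25 phosphatases, Wee1 kinases and Plk1, 0 rose and 1 fell in KO and 1 rose and 0 fell in KI. Cdc25c, the phosphatase that activates Cdk1, was the one that fell in KO, at -0.57 ± 0.19 (edgeR adjusted p = 0.0343), a call lost with close pairs summed (edgeR adjusted p = 0.187). Pkmyt1, the kinase that holds Cdk1 inactive, was the one that rose in KI, at 0.23 ± 0.09 (edgeR adjusted p = 0.0807), a call lost without WT 2, WT 5, KI 1, KI 3, KI 5 or KI 6, with close pairs summed, with no filter on low counts and with a replicate block (edgeR adjusted p = 0.123). Of 8 CDK-like and MAK kinases, 0 rose and 2 fell in KO and 1 rose and 2 fell in KI. Cdkl2 fell by 0.40 ± 0.13 on the log2 scale in KO and by 0.50 ± 0.13 in KI (edgeR adjusted p = 0.0313 and 0.00791), and Cdkl3 by 0.54 ± 0.23 and 0.76 ± 0.23 (edgeR adjusted p = 0.0883 and 0.0154). The KO call of Cdkl3 was lost in 8 of 18 fits without 1 library (WT 1, WT 2, KO 2, KO 3, KO 4, KO 5, KO 6 or KI 6). With close pairs summed, neither Cdkl2 (edgeR adjusted p = 0.169 in KO and 0.116 in KI) nor Cdkl3 (0.266 and 0.157) was called in either mutant. Of 7 cyclin-fold genes outside the symbol rule, 1 rose in KO (Ccnjl, 0.80 ± 0.33, edgeR adjusted p = 0.0837) and 2 rose in KI, among them Ccnj (0.67 ± 0.26, edgeR adjusted p = 0.0671); the call of Ccnjl was lost in 8 of 18 fits without 1 library (WT 1, WT 2, WT 5, WT 6, KO 2, KO 4, KO 5 or KO 6), with close pairs summed, with no filter on low counts and with DESeq2. That of Ccnj was lost in 7 of 18 such fits (WT 2, WT 3, WT 4, KI 3, KI 5, KI 6 or the library labelled KI 4) and with close pairs summed. Beside these counts stand the shares of all genes tested given above, 16.4% higher and 13.5% lower in KO and 16.1% higher and 15.4% lower in KI.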

How the data were processed

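Total RNA of RS was sequenced with a strand-specific kit without poly(A) selection. The authors trimmed reads with cutadapt 3.4, aligned them to GRCm38/mm10 with STAR 2.7.8a and deposited raw counts per gene from featureCounts (Subread 2.0.1) with GENCODE release 18. Symbols and positions came from GENCODE M21, which held 54165 of 54232 identifiers. Raw counts of all 18 libraries were fitted with edgeR 4.0.16 in R 4.3.3 (filterByExpr, TMM scaling, quasi-likelihood test, genotype as the only term). Changes were called at a Benjamini-Hochberg adjusted p below 0.1, also against a log2 change of 1 (glmTreat). CPM are TMM-scaled and FPKM divide CPM by gene length. The fit was tested on simulated data, where it called 12.2% of genes changed by 0.5, 72.0% of those changed by 1 and 95.9% of those changed by 2 log2 units (KO against WT, 20675 genes); far fewer genes changed there than were called in the real data, so these rates do not carry over. Alternatives included DESeq2 1.42.0, other filters, leaving out each library and summing close pairs. Log2 fold changes are given for Ddx25, genes past 1 log2 unit, the 6 largest called rises and falls per mutant and the 5 highest per length in WT. For most of these genes levels in CPM or FPKM are given too. Other genes of the 41 are given by role, and from each pathway list the 2 genes with the lowest p in KO. The genes and lists were chosen with earlier results of these data known. A library's total count limits the precision of low genes. No sample was left out of the main results.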

Additional observations from a re-analysis of the deposited data

Results flagged for a closer look

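Of 105 groups of 6 libraries checked for a library far from the other 5, 9 had one; chance alone gives about 1 in 20. The library labelled KI 4 stood out 4 times. Its Ddx25 was 56.9 CPM against 0.0456 to 0.519 in the other KI libraries, its Ccne1 12.4 against 7.10 to 8.43, its Skp2 60.2 against 35.6 to 43.8 and its Med12 33.2 against 19.3 to 24. KI 2 was the lowest KI library for Ccnt2, at 21.3 CPM against 24.8 to 26.6, and for Cdkn1c, at 7.10 against 8.55 to 9.36. WT 6 was the highest WT library for Ccnd2, at 1.06 CPM against 0.562 to 0.731. KO 3 was the highest KO library for Ccnl1, at 76.4 CPM against 65.2 to 67.5, and KO 2 for Ccnjl, at 1.83 against 0.654 to 1.08. The cause of these values was not tested.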

How the results depend on the processing

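Counts are over all genes tested (21058 with all libraries; filters and summed libraries change this number) unless cyclins and CDKs are named, and "past 1" means past 1 log2 unit. With all libraries, 6297 genes were called in KO (365 past 1), 6644 in KI (411 past 1) and 21 between KI and KO (1 past 1). KI against KO gave 97 genes and 10 past 1 with no filter on low counts, 5 and 0 with at least 10 counts in every library, 11 with only the 2 genotypes fitted, and 85 and 5 with DESeq2. With at least 10 counts in every library, 214 genes were past 1 in KO. At an adjusted p below 0.05, 5 cyclins and CDKs were higher in KO. The calls of Ccnl1 in KO and of Cdk1, Cdk11b, Cdk20 and Ccnd3 in KI were also lost there. The share of all genes at that threshold is not given here, so the count of 5 cannot be set against it. With close pairs summed, cyclins and CDKs numbered 5 higher and 3 lower in KO (1 past 1) and 6 higher and 2 lower in KI; all genes numbered 3655 in KO, 3402 in KI (247 past 1) and 1 between KI and KO (0 past 1). Without the library labelled KI 4 as well, a choice made after seeing the data, they were 4 and 3, and 4 and 2; all genes 3732, 2922 (227 past 1) and 44 (8 past 1). The cause of these shifts was not tested, but summing leaves fewer libraries. Leaving out 1 library gave 6 to 11 cyclins and CDKs higher and 3 to 6 lower in KO (3 without WT 3), and 8 to 14 higher and 3 to 5 lower in KI, with 2 past 1 in each. All genes ran from 5479 to 6525 in KO (308 to 380 past 1), from 5894 to 6976 in KI (365 to 477 past 1) and from 8 to 111 between KI and KO (0 to 15 past 1), the highest without the library labelled KI 4; 0 cyclins and CDKs were called there each time. When 1 library was left out, uncalled log2 fold changes near 0 changed sign for 5 of the 41 genes in KO (Ccna1, -0.022 to 0.178; Ccnk, -0.175 to 0.120; Ccnh, Cdk8 and Cdk12) and for 7 in KI (Ccnb2, -0.204 to 0.048; Ccna2, -0.133 to 0.204; Ccng1, Ccnh, Ccnl2, Cdk7 and Cdk19); 0 of these were called. Replicate numbers did not pair the libraries (correlations of same-numbered libraries from -0.441 to 0.481, 7 of 18 over 0.1; 5 of 18 libraries correlated best with their own number). With the replicate number as a block, cyclins and CDKs numbered 8 higher and 4 lower in KO, 10 and 4 in KI, with 2 past 1 in each, and 0 between KI and KO; all genes 6265 (363 past 1), 6521 (420 past 1) and 23 (1 past 1), and Ddx25 had log2 fold changes of -3.08 in KO and -8.79 in KI.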
